A study of Mus musculus with 123 samples.

Results

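The genes described here are 8 members of the BCL2 family and the initiator caspase Casp9, 9 of the 24134 genes in the deposited tables, chosen by symbol: Bcl2, Bcl2l1, Bcl2l2, Mcl1, Bax, Bak1, Bcl2l11, Hrk and Casp9. All 9 symbols were found in each table. The study profiled mouse dorsal root ganglion (DRG) neurons after sciatic nerve transection (SNT) by Smart-seq2, a full-length RNA-seq method whose reads carry no molecular identifiers. Neurons of the L3 to L5 ganglia were picked by hand from the transected right side and from the uncut opposite side, which served as the control, and were sequenced singly or as pools. All mice were 2 months old. The day 3 cells and the pools came from F1 offspring of a CAST/Eij male and a C57BL/6 female, read at 50 bp; the study's methods give these offspring as female, and the labels name no sex for them. The day 7 cells came from C57BL/6 mice of both sexes, read at 75 bp. Days therefore cannot be told apart from strain, sex and read length, and each day was compared with its own control side alone.

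Of 117 deposited cells, 106 were kept in the deposited table without outliers. At day 3 these were 18 control cells, with total counts of 277390 to 1368842 (median 862619), and 41 SNT cells, with 611647 to 1849130 (median 1323932). At day 7 they were 14 control cells (7 female, 7 male), with 510014 to 1018545 (median 738947), and 33 SNT cells (16 female, 17 male), with 261351 to 965292 (median 575179). The labels name no animal, so the cells of a side and day form 1 sample, and no p-value was computed from cells. The control pools had total counts of 727212, 839135 and 563462, and the SNT pools 1672826, 1148849 and 2003817. The 3 pooled libraries of a side are parts of 1 lysate, so their test compares 2 pools over technical spread. The deposited values were taken to be the expected counts of RSEM, although the file names and the study's methods speak of TPM, because column totals are unequal. Levels are given as CPM, the expected count of a gene divided by the library total and multiplied by 1000000. Poisson intervals and floors below cover counting error only, and Clopper-Pearson intervals on shares of cells treat the cells of a side as independent draws.

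The labels of the pooled libraries conflict. The column names were followed here, while a line of identifiers in the same labels pairs the 6 pooled columns with the opposite side, and the source label of all 6 reads intact. Under the identifiers the sign of every pooled difference would flip. The injury-induced genes Atf3, Jun and Sprr1a were therefore used as a check of the sides. Atf3, a transcription factor switched on in axotomised neurons, stood at 8.25, 21.5 and 10.6 CPM in the control pools and at 1619, 1372 and 1409 CPM in the SNT pools. Jun stood at 77.0 to 95.8 CPM against 295 to 357 CPM, and Sprr1a at 1.38 to 9.53 CPM against 1307 to 1540 CPM. Without control replicate 2, the log2 change of Sprr1a was 8.61 in place of 7.98. In all 3 genes every library named as SNT was above every library named as control. Among single cells, Atf3 had a median of 8.75 CPM in control and 1696 CPM in SNT cells at day 3, and of 3.89 and 9.19 CPM at day 7.

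BCL2 proteins decide whether the outer mitochondrial membrane of a cell stays intact. Anti-apoptotic members (BCL2, BCL-XL, BCL-W, MCL1) hold the pore-forming effectors BAX and BAK in check, BH3-only members (BIM, HRK and others) relieve that hold, and cytochrome c released through the pore activates caspase 9 on the apoptosome. Sensory neurons depend on trophic factors in development and are known for resisting death after axotomy as adults, with BIM and HRK studied as inducers of death when trophic support is lost.

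Pooled neurons at day 3 asked how the members differ between the injured and the intact side in bulk. Bcl2 fell on the SNT side and was the 1 member called. It stood at 46.7, 19.1 and 37.3 CPM in the control libraries and at 6.58, 2.61 and 1.51 CPM in the SNT libraries. The sides did not overlap, and the highest SNT library was below the lowest control library. Means were 34.3 ± 14.1 CPM (SD, n = 3) and 3.57 ± 2.66 CPM (SD, n = 3), a 9.63-fold lower level on the SNT side, and the fitted log2 change was -3.07 (SE 0.51, adjusted p = 7.4e-06), lower in 3 of 3 SNT libraries. Without SNT replicate 1, the highest of its side, the log2 change was -3.88 (adjusted p = 9.6e-06), and over all alternatives it ranged from -3.88 to -2.62, called in each (adjusted p 9.4e-09 to 0.0012). Behind these levels were 71 counts in the control and 17 in the SNT libraries. By edgeR, 1 of 9 members was called lower, at an adjusted p under 0.05 with a log2 change past 1 in size, where 7.1% of all 13509 genes tested were. None of the 9 was called higher, where 8.85% of all genes were, and at an unadjusted p below 0.05 the higher ones were Bcl2l11 and Hrk. Both were at 0 in the control libraries and met the level filter through the SNT libraries alone, so this p is no support for a rise. By limma 0 of 9 were called higher, and by DESeq2 0 of the 7 with an adjusted p, which Bcl2l11 and Hrk lacked there. At any size, 1 of 9 members passed the adjusted p, where 24.8% of all genes did. These shares are near those of all genes and are no result about the members as a group. Over all genes, 1196 were called higher and 961 lower (55.4% higher, median log2 change 0.02); scaling by library size alone gave 43.7% higher and a median of -0.14, and no member changed its sign under any scaling.

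The other anti-apoptotic members lay closer together on the sides. Bcl2l1, which encodes BCL-XL, stood at 60.5, 73.9 and 63.9 CPM in the control and at 38.3, 45.3 and 35.9 CPM in the SNT libraries. The sides did not overlap, yet the log2 change of -0.59 (SE 0.25) did not pass the test (adjusted p = 0.076). It passed the adjusted p, at the same direction, with library size alone (adjusted p = 0.021) and when the level filter was raised to 10 CPM (adjusted p = 0.048), in a range of 0.021 to 0.23 over the alternatives. Mcl1, a short-lived anti-apoptotic protein, stood at 22, 25 and 19.5 CPM against 25.7, 29.6 and 28.4 CPM. Its sides did not overlap either, by a narrow gap (log2 change 0.47, adjusted p = 0.33). Bcl2l2, which encodes BCL-W, stood at 17.9, 22.6 and 23.1 CPM against 29.9, 19.1 and 23.5 CPM, and its sides overlapped (log2 change 0.36, adjusted p = 0.5).

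Of the effectors, Bax stood at 9.63, 36.9 and 21.3 CPM in the control and at 26.9, 25.2 and 47.4 CPM in the SNT libraries. The sides overlapped, and the control libraries were spread more widely than those of Bcl2l1 or Mcl1. The log2 change of 0.70 (SE 0.36, adjusted p = 0.16) did not pass, but without control replicate 2, the highest of its side, Bax was called higher (log2 change 1.33, adjusted p = 0.014; range over the alternatives 0.014 to 0.65). Bak1, which encodes the other effector, stood at 2.75, 2.38 and 0 CPM against 1.79, 6.09 and 8.48 CPM, with overlap and an adjusted p of 0.2. Its exons share 614 bases with the opposite-strand gene Ggnbp1, which had a mean of 0.684 CPM. Casp9 stood at 39.9, 36.9 and 31.9 CPM against 41.8, 31.3 and 44.9 CPM, with overlap and an adjusted p of 0.51.

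Both BH3-only members were at 0 in every control library and had counts in every SNT library. Bcl2l11, which encodes BIM, reached 5.39, 0.879 and 2.50 CPM in the SNT libraries, from 9, 1 and 5 counts. Hrk, which encodes the BH3-only protein known as Harakiri, reached 4.2, 2.62 and 0.998 CPM, from 7, 3 and 2 counts. The sides of both genes did not overlap, at counts that leave wide counting error. Against a floor of 3 counts over the control group (1.41 CPM), the summed SNT level of Bcl2l11 (3.1 CPM) was at least 2.21-fold higher and that of Hrk (2.49 CPM) at least 1.77-fold higher. Over leaving out each library these bounds ranged from 1.34 to 2.71 and from 1.07 to 2.52, and without SNT replicate 1, where they were 1.35 and 1.13, neither gene reached the level filter. Neither passed the test (adjusted p = 0.059 and 0.083), and their fitted log2 changes depend on the prior count and give no bound. In all, the sides did not overlap in 5 of 9 members (Bcl2, Bcl2l1, Mcl1, Bcl2l11 and Hrk), where 38% of all genes tested were apart in this way. Bcl2l11 and Hrk met the level filter through the SNT libraries alone, so their being apart adds no support to this count.

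**Figure D1:**
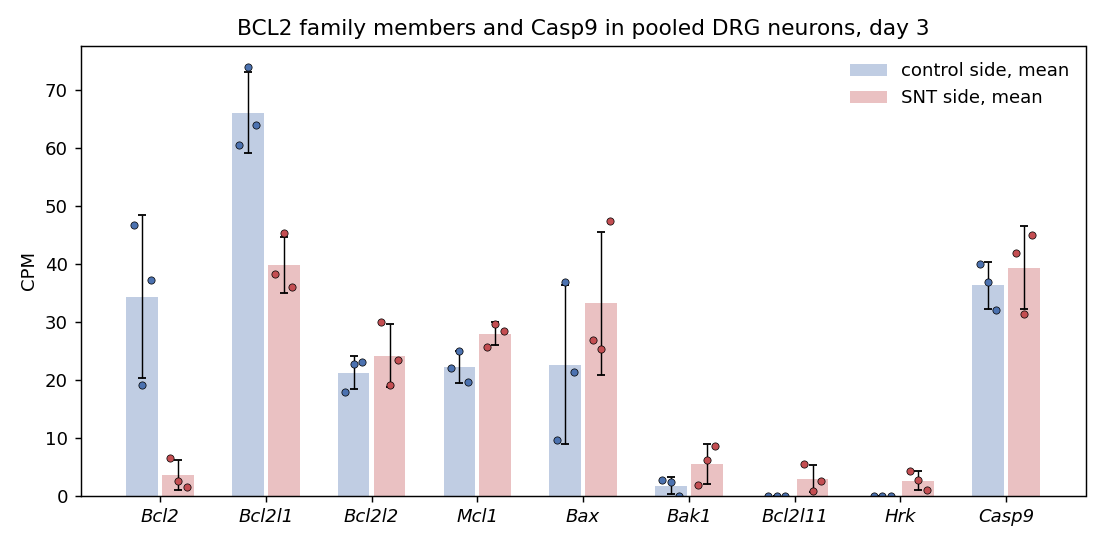
Level in CPM (vertical axis) of each of the 9 genes in the 3 control and 3 SNT pooled libraries at day 3, with points for libraries, bars for means and error bars for the SD. Bcl2 spans 19.1 to 46.7 CPM in the control and 1.51 to 6.58 CPM in the SNT libraries, and Bcl2l11 and Hrk are at 0 in each control library.

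Markers of other cells moved with the Bcl2 result. Of 10 glia markers, 5 were called lower and 1 higher in the SNT pools (median log2 change -1.06, beside 0.02 over all genes). Their summed level was 12397, 15119 and 14659 CPM in the control and 5771, 6551 and 6160 CPM in the SNT libraries, with Apoe the most abundant and none at 0 in any library. All 4 markers of nonpeptidergic nociceptors were called lower (median -3.18), with sums of 2822, 2797 and 2857 CPM against 454, 460 and 452 CPM. Mrgprd was the most abundant in the control and P2rx3 in the SNT libraries, and 1 marker was at 0 in SNT replicate 3. Of 3 peptidergic markers 1 was called lower (median -0.85), of 5 large myelinated markers 2 were called higher (median 1.19), and of 10 neuron markers 1 was called higher (median 0.03). Markers of immune, red blood and endothelial cells were at or near 0, with Ptprc, Hba-a2, Hbb-bs and Hbb-bt at 0 in all 6 libraries. Immune markers summed to at most 9.48 CPM in any library (2 of 8 tested, 1 higher; median 3.79, or 1.90 with the gene at 0 in controls set at its bound), erythrocyte markers to at most 11 CPM (1 of 5 tested, none called; median 1.0) and endothelial markers to at most 9.48 CPM (3 of 4 tested, 1 higher; median 0.94). The immune and endothelial genes called higher, Csf1r and Cldn5, were at 0 in the control libraries and met the level filter through the SNT libraries alone. Fibroblast markers summed to at most 58.6 CPM (3 of 4 tested, 1 lower, median -1.18). In these pools, fewer cells of a type and less RNA per cell cannot be told apart, and the part of the markers in the Bcl2 result was not tested.

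Single cells of day 3, other cells of the same cross, give the spread of each gene between neurons. The study proposes that a subset of SNT-side neurons, low in regeneration genes at day 3, may have been spared by the cut. Of the 41 SNT cells, 11 had at most 23 CPM of Atf3 (below), and ratios of the SNT side include them. Bcl2 ranged from 0 through a median of 6.82 to 154 CPM over 18 control cells, and from 0 through 2.55 to 93.5 CPM over 41 SNT cells. The sides overlapped over nearly the whole range, and in both a few cells carried a large part of the signal. Bcl2 was above 10 CPM in 8 of 18 control cells (44.4%, exact Clopper-Pearson 95% interval 21.5 to 69.2%) and in 7 of 41 SNT cells (17.1%, 7.2 to 32.1%). The mean was 22.2 ± 38.6 CPM (SD) on the control side and 8.81 ± 18.3 CPM (SD) on the SNT side, a log2 ratio of -1.24 with 1 CPM added to each mean. Leaving out the highest cell of each side gave -1.0, just short of the fold, and all deposited cells gave -0.89. Of the 6 members whose mean reached 10 CPM on either side, 1, Bcl2, lay below a log2 ratio of -1, where 6.07% of all genes did, and 0 lay above 1, where 5.82% did. A count of 1 among 6 is no result about the members as a group.

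Bcl2l1 was present in every cell. It ranged from 42.6 through a median of 87.1 to 175 CPM in control and from 17.3 through 46 to 155 CPM in SNT cells. The ranges overlapped, with 17 of 41 SNT cells below the lowest control cell and none above the highest, at a log2 ratio of -0.56. Bcl2l2 ranged from 13.9 through 31.4 to 91.1 CPM in control and from 0 through 17.3 to 45.1 CPM in SNT cells. Here too the ranges overlapped, with 18 of 41 SNT cells below the lowest control cell. Its log2 ratio of -0.97 was short of the fold, and it lay past the fold with a pseudocount of 0.1 CPM and after thinning each cell to 200000 counts (-1.14). The pools of the same day and cross had the opposite direction for Bcl2l2 (log2 change 0.36), with sides that overlapped, and the difference was not tested. Mcl1 had a log2 ratio of 0.11, with means of 27.2 and 29.4 CPM, and its ranges overlapped almost fully. Among the effectors, Bax (means 41.7 and 46.8 CPM) had a log2 ratio of 0.16 and Bak1 (2.22 and 3.02 CPM) one of 0.32. Casp9 (39.6 and 47.8 CPM) had a log2 ratio of 0.27, with 6 of 41 SNT cells above the highest control cell.

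The BH3-only members again had more counts on the SNT side. Bcl2l11 ranged from 0 through a median of 0 to 8.33 CPM in control cells and from 0 through 2.55 to 25.5 CPM in SNT cells. The ranges overlapped, and 9 of 41 SNT cells lay above the highest control cell. Counts were found in 8 of 18 control and 29 of 41 SNT cells, or in 3 and 16 once every cell was thinned to 200000 counts. Summed over cells, the level was 0.751 CPM (exact Poisson 95% interval 0.383 to 1.32) in control and 5.03 CPM (4.44 to 5.68) in SNT cells. The log2 ratio of the means was 1.47, below the level filter. Hrk had no count in any of 18 control cells, which allows up to 0.194 CPM (3 counts over the group), and had counts in 13 of 41 SNT cells (3 after thinning), up to 7.2 CPM. The other 28 SNT cells were at 0, as all control cells were. Its summed SNT level of 1.20 CPM (0.920 to 1.54) was at least 6.17-fold higher than that control floor.

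At day 7 none of the 6 members at the level filter lay past the fold in the mean: 0 lay above a log2 ratio of 1, where 4.45% of all genes did, and 0 below -1, where 3.2% did. These ratios describe the whole SNT side, in which 21 of 33 cells had at most 13.9 CPM of Atf3 (below). Whether those cells were injured was not tested. Bcl2 ranged from 3.98 through a median of 61.9 to 140 CPM over 14 control cells and from 0 through 13.6 to 346 CPM over 33 SNT cells. SNT cells reached beyond the control cells at both ends, with 3 above the highest and 7 below the lowest. The mean was 56.0 ± 43 CPM (SD) against 57.1 ± 85.3 CPM (SD), a log2 ratio of 0.03, while that of the medians was -2.11. Within sex the log2 ratio of the means was -0.66 in females and 0.49 in males, and that of the medians -1.94 and -0.89. The difference between sexes was not tested.

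Bcl2l1 ranged from 31.4 through 61.7 to 72.7 CPM in control and from 16.8 through 35.2 to 95.8 CPM in SNT cells. The ranges overlapped, with 9 of 33 SNT cells below the lowest control cell and 5 above the highest. The log2 ratio was -0.41 (females -0.37, males -0.45). Bcl2l2, with a mean of 37.4 CPM in control and 48.5 CPM in SNT cells, had a log2 ratio of 0.37 (females 0.59, males 0.15), and 13 of 33 SNT cells lay above the highest control cell. At day 3, in a different strain and read length, the same ratio was -0.97 in cells, beside a log2 change of 0.36 in the pools. These differences were not tested. Mcl1 (28.8 and 41.6 CPM) had a log2 ratio of 0.51 (females 0.48, males 0.54), with 9 SNT cells above the highest control cell and none below the lowest. The effectors Bax (-0.13; females -0.12, males -0.14) and Bak1 (0.17; females 0.33, males 0.03) had log2 ratios near 0, as had Casp9 (-0.03; females 0.15, males -0.23). Of 33 SNT cells, 10 lay below the lowest control cell in Bax and 7 above the highest in Casp9.

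Hrk had no count in any of the 14 control cells, which allows up to 0.284 CPM (3 counts over the group), and counts in 10 of 33 SNT cells (9 after thinning), up to 62.6 CPM. The remaining 23 SNT cells were at 0, as the control cells were. The summed SNT level of 5.08 CPM (exact Poisson 95% interval 4.13 to 6.17) was at least 17.9-fold higher than that control floor. A large part of these counts lay in 1 female cell at 62.6 CPM, with the next cell at 20.5 CPM. No bound without it is given here. Counts were found in 8 of 16 female and 2 of 17 male SNT cells, with bounds of at least 14.4-fold and at least 3.1-fold. Each of these bounds leans on 1 cell. The highest female cell had 62.6 CPM and the next 15.5 CPM, and the 2 male cells had 20.5 and 8.02 CPM. Bcl2l11 ranged from 0 through 1.21 to 4.17 CPM in control and from 0 through 0 to 19.9 CPM in SNT cells. These ranges overlapped, with 8 SNT cells above the highest control cell and counts in 8 of 14 and 13 of 33 cells (4 and 9 after thinning). Its log2 ratio was 0.45 (females 0.21, males 0.57), and that of the medians -1.14.

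**Figure D2:**
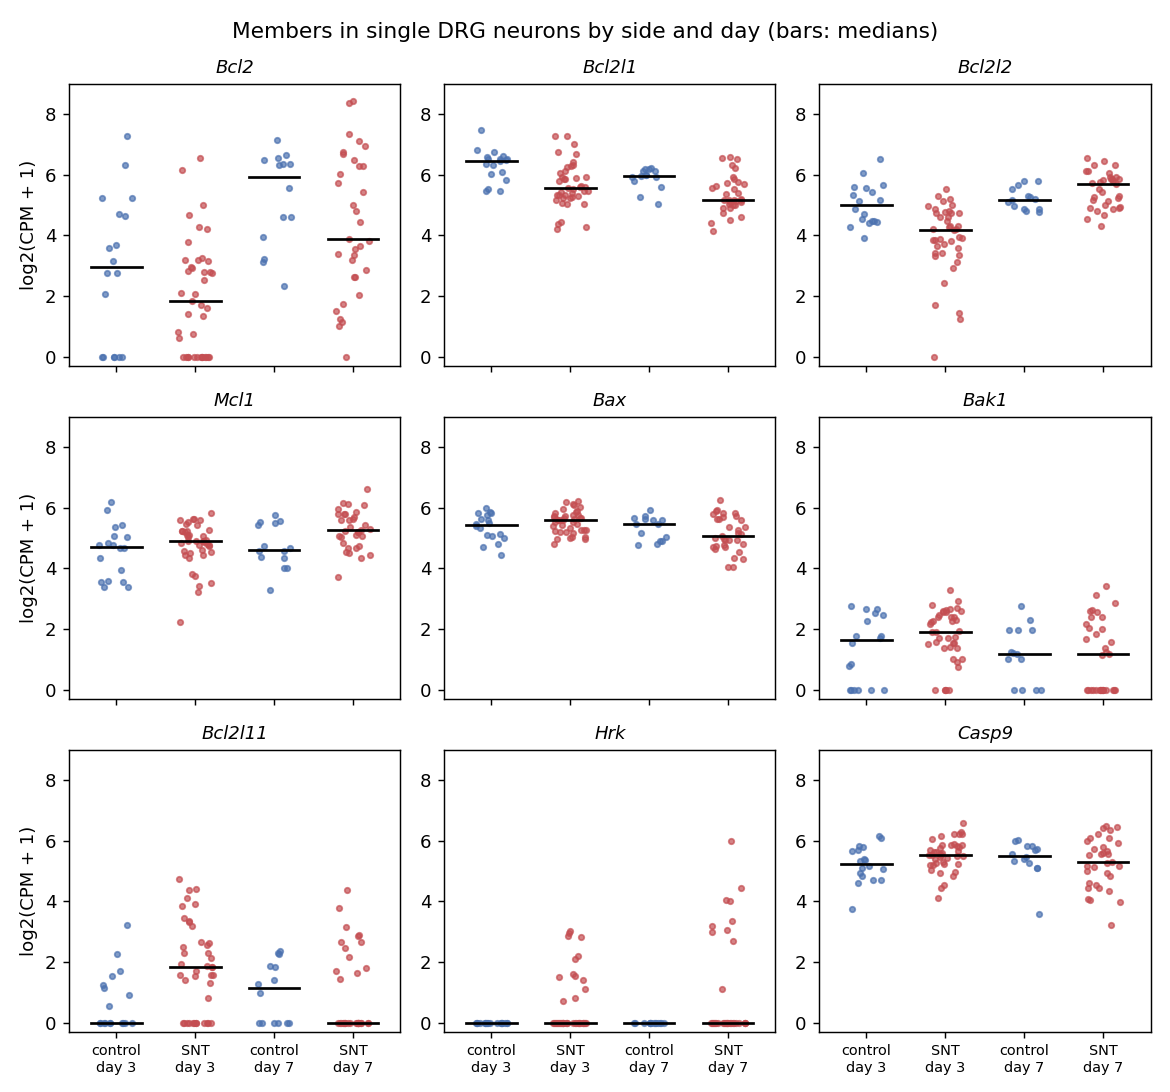
Level of each of the 9 genes in single DRG neurons, as log2(CPM + 1) on the vertical axis, by side and day; each point is a cell and each bar the median of its group. Hrk is at 0 in all 18 and 14 control cells, and Bcl2 spans 0 to 346 CPM among the day 7 SNT cells.

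P2rx3, the ATP receptor of nonpeptidergic nociceptors, was used to divide the cells at 10 CPM. It is itself among the genes that fell in the pools (log2 change -1.23, SE 0.13, adjusted p = 5.4e-10), from 740 to 818 CPM in control to 291 to 311 CPM in SNT libraries. In day 3 cells its means were 803 CPM in control and 891 CPM in SNT cells (log2 ratio 0.15), while the log2 ratio of the medians was -2.18. Among those above 10 CPM the means were 903 and 1351 CPM (0.58). In day 7 cells they were 154 and 79.2 CPM (-0.95, by the medians -1.58). Around the divider, the control cells nearest to it at day 3 had 9.47 and 13.8 CPM and the SNT cells 8.35 and 16 CPM. At day 7 they had 6.87 and 12.9 CPM, and 8.83 and 23.4 CPM. At day 3, 16 of 18 control and 27 of 41 SNT cells were above 10 CPM, and at day 7, 8 of 14 and 10 of 33.

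Among day 3 cells with P2rx3 above 10 CPM, 1 of 6 members, Bcl2, lay beyond a log2 ratio of 1 in either direction, where 11.6% of all genes did. Bcl2 ranged from 0 through 9.38 to 154 CPM in 16 control and from 0 through 0.687 to 93.5 CPM in 27 SNT cells. The ranges overlapped, and the log2 ratio was -1.24, as over all cells. A few cells held much of both means, with the 2 highest control cells at 154 and 78.0 CPM. With the highest cell of each side left out the ratio was -1.16. Without the highest SNT cell it was -1.75, and without the 2 highest SNT cells -2.34. No value without the highest control cell alone is given here. With the divider at 100 CPM, Bcl2 had a log2 ratio of -0.65 and Bcl2l2 one of -1.02 above it (12 control and 22 SNT cells), and Bcl2 had -1.92 and Bcl2l1 -1.07 at most at it (6 and 19 cells). With the divider at 10 CPM only 2 control cells fell at most at it at day 3, so their values stand alone. Those cells had 87.6 and 113 CPM of Bcl2l1, above each of 14 SNT cells (17.3 through 38.3 to 67.9 CPM). They had 0 and 5.71 CPM of Bcl2, within the SNT cells' range of 0 to 18.3 CPM. Hrk had counts in 5 of the 27 SNT cells above the divider and in 8 of the 14 at most at it (1 and 2 after thinning).

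At day 7, with the divider at 10 CPM, Bcl2 lay past the fold in both classes, in opposite directions. Above 10 CPM of P2rx3 it ranged from 3.98 through 19 to 140 CPM in 8 control and from 3.1 through 77.5 to 346 CPM in 10 SNT cells. The ranges overlapped, with 2 SNT cells above the highest and 1 below the lowest control cell, at means of 44.5 and 112 CPM and a log2 ratio of 1.31. It was 1 of 6 members beyond a log2 ratio of 1, where 10.1% of all genes were. Of the SNT cells 2, at 346 and 329 CPM, held much of this mean: the ratio was 0.94 without the first and 0.32 without both, and 1.45 with the highest cell of each side left out. At most 10 CPM it ranged from 23.6 through 84.3 to 98.9 CPM in 6 control and from 0 through 10.8 to 159 CPM in 23 SNT cells. Of those SNT cells 15 lay below the lowest control cell and 3 above the highest, at means of 71.5 and 33.2 CPM and a log2 ratio of -1.08, again 1 of 6 members, where 11.8% of all genes were. Bcl2 was short of the fold among cells above 1 CPM (log2 ratio 0.59) and among those at most at 100 CPM (-0.64). The difference between the classes was not tested, and the classes hold few control cells. They also differ in Atf3: 1 of the 10 SNT cells above the divider and 11 of the 23 at most at it had at least 704 CPM of Atf3, a set in which Bcl2 was lower (below), and the part of Atf3 in the opposite directions was not tested. All 10 day 7 cells with Hrk counts had P2rx3 of at most 10 CPM. Bcl2l1 had a log2 ratio of -0.02 above the divider and -0.64 at most at it, where 15 of 23 SNT cells lay below the lowest control cell.

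SNT cells fell into separate sets by Atf3, so rank correlations with it are given within each set, as descriptions over cells of 1 side and day that differ in depth; the sets were drawn after the values were seen. At day 3, 11 SNT cells had at most 23 CPM of Atf3 and 30 had at least 951 CPM, and at day 7, 21 had at most 13.9 CPM and 12 at least 704 CPM. No SNT cell lay between. Both Bcl2 and Bcl2l1 had lower medians in the set with high Atf3. At day 3 Bcl2l1 ranged from 48 through a median of 84.9 to 155 CPM in the 11 cells and from 17.3 through 40.4 to 67.9 CPM in the 30, and Bcl2 had medians of 5.99 and 1.94 CPM. At day 7 Bcl2 ranged from 3.1 through 64.0 to 346 CPM in the 21 cells and from 0 through 5.18 to 41.6 CPM in the 12, and Bcl2l1 had medians of 46.2 and 28.9 CPM. All these ranges overlapped, and the differences were not tested. Within the sets, at day 3 Bcl2 had a Spearman rho with Atf3 of -0.31 among the 11 and -0.43 among the 30 cells, and Bcl2l1 of -0.30 and -0.13. Bcl2l11 had a rho of 0.40 among the 30 cells with high Atf3, where Hrk had -0.21. At day 7 Bcl2 had a rho of -0.38 among the 21 and 0.13 among the 12 cells, and Bcl2l1 of -0.27 and -0.07. Hrk had a rho of 0.57 among the 12 cells and no count in the other 21. The 10 day 7 cells with Hrk counts had 874 to 1778 CPM of Atf3, and 11 SNT cells in all had at least 874 CPM. Of the 12 cells with high Atf3, 8 were female and 4 male, and 1 had P2rx3 above 10 CPM. At day 3, 12 of the 13 cells with Hrk counts and 24 of the 29 with Bcl2l11 counts were among the 30 with high Atf3.

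**Figure D3:**
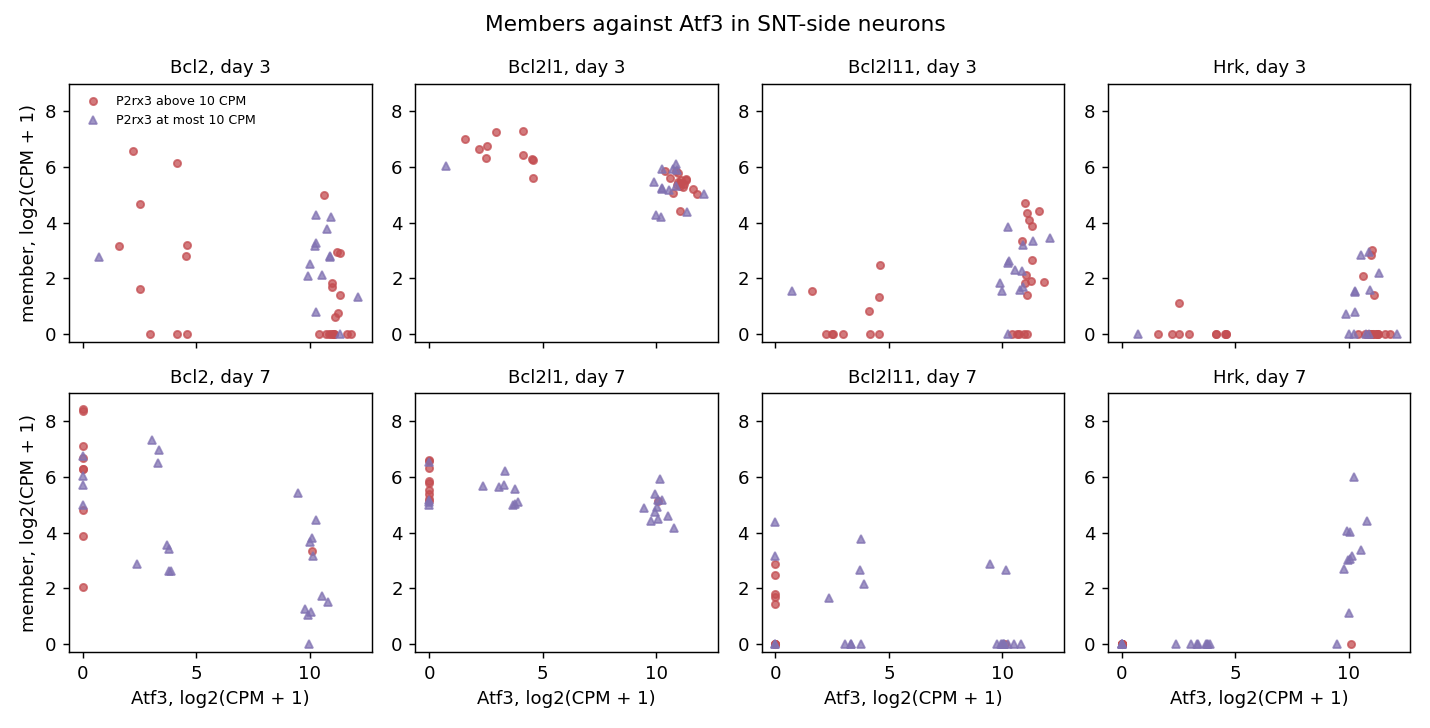
Level of Bcl2, Bcl2l1, Bcl2l11 and Hrk against Atf3 in SNT-side cells, both axes as log2(CPM + 1), with day 3 in the upper and day 7 in the lower row; circles are cells with P2rx3 above 10 CPM and triangles the rest. No cell lies between 23 and 951 CPM of Atf3 at day 3 or between 13.9 and 704 CPM at day 7, and all 10 day 7 cells with Hrk counts are triangles at the right.

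Other measures moved with Bcl2 across cells. Over 18 day 3 control cells, Bcl2 had a rho of 0.68 with the summed glia markers and of 0.70 with Nefh, a neurofilament of large myelinated neurons. Over the 41 SNT cells these were 0.59 and 0.27. At day 7 the rho with glia markers was 0.06 over 14 control and 0.28 over 33 SNT cells, and that with Nefh 0.57 and 0.30. Median summed glia markers were 3737 and 3729 CPM in control and SNT cells at day 3 and 4553 and 731 CPM at day 7, with Apoe the most abundant and none of the 10 at 0 over any group, and their part was not tested. Among the members themselves, the lowest rho over day 3 SNT cells was -0.51, between Bcl2l1 and Bcl2l11, and over day 7 SNT cells -0.59, between Bcl2 and Hrk. The highest was 0.37 at day 3, between Bcl2 and Bcl2l1, and 0.51 at day 7, between Bax and Casp9. Every rho over SNT cells in this paragraph was taken over both sets of Atf3 together. In the sets with low and high Atf3, the medians at day 3 were 84.9 and 40.4 CPM for Bcl2l1 and 0 and 3.63 CPM for Bcl2l11. At day 7 they were 64.0 and 5.18 CPM for Bcl2 and 0 and 7.64 CPM for Hrk. The part of the sets in these rhos was not tested. Hrk had a rho of 0.37 with total counts at day 3 and 0.45 at day 7, and whether depth has a part in its detection was not tested beyond the thinned counts.

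The genes most like a member were sought over the 41 SNT cells of day 3, among 3947 genes whose mean reached 50 CPM. For Bcl2, the member with the largest fall in the pools, they were S1pr3 (rho 0.78), Kcna2 (0.73), Elovl5 (0.68), Ntrk2 (0.66) and Echs1 (0.62). For Bcl2l11, taken for its fitted log2 change of 4.90 beside 4.67 in Hrk, an order that turned without SNT replicate 3 and gives no ranking of the 2, they were Cldnd1 (0.64), Azin1 (0.62), Itgb1 (0.61), Eftud2 (0.59) and Ube2g1 (0.59). These cells come from 1 side and day, include both sets of Atf3 and differ in depth, and the ranking is a description. The part of the Atf3 sets in it was not tested.

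Levels of different genes were compared per kb of exon, as the union of a gene's exons in GENCODE M21 (GRCm38), whereas the files were counted on mm9 RefSeq exons. In day 3 control cells the order was Bax at 26.4 ± 7.76 CPM per kb (SD, 18 cells), Bcl2l1 at 18.3 ± 6.79, Bcl2l2 at 8.0 ± 4.38, Mcl1 at 7.97 ± 5.07 and Casp9 at 7.62 ± 3.00 CPM per kb. Below them came Bcl2 at 2.42 ± 4.21, Bak1 at 0.923 ± 0.901 and Bcl2l11 at 0.140 ± 0.260 CPM per kb, with Hrk at 0. No neighbours in this order differed by more than their SDs together. In day 3 SNT cells Bax stood at 29.7 ± 7.59 and Bcl2l1 at 12.3 ± 7.09 CPM per kb, with Casp9 (9.20 ± 3.2), Mcl1 (8.61 ± 3.54) and Bcl2l2 (3.98 ± 2.41) next, and of these neighbours Bax and Bcl2l1 alone differed beyond their SDs. Bak1 followed at 1.26 ± 0.856, then Bcl2 at 0.962 ± 2.0, Bcl2l11 at 0.610 ± 0.794 and Hrk at 0.185 ± 0.360 CPM per kb. In day 7 control cells Bax (25.7 ± 6.91) and Bcl2l1 (12.9 ± 2.77) again led, apart beyond their SDs, and Bcl2 stood at 6.12 ± 4.70 CPM per kb. In day 7 SNT cells Bax (23.5 ± 9.43) was followed by Mcl1 (12.2 ± 5.33), Bcl2l2 (10.9 ± 4.37) and Bcl2l1 (9.65 ± 4.60 CPM per kb), neighbours within their spread. In the control pools Bcl2l1 (14.4 ± 1.52, n = 3) and Bax (14.4 ± 8.70, n = 3) were within their spread, and in the SNT pools Bax led at 21.1 ± 7.83 CPM per kb.

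Other genes of the pathway were counted by lists. Of all genes tested in the pools, 8.85% were called higher and 7.1% lower. The lists are short and were chosen with earlier results known, so their counts are no result about a list as a group. Of 17 other BCL2 family genes, 10 could be tested in the pools, and Pmaip1 rose while Bid fell (median log2 change of the list -0.68, beside 0.02 over all genes). Pmaip1, which encodes the BH3-only protein NOXA, stood at 2.75, 14.3 and 12.4 CPM in the control and at 69.0, 77.5 and 60.1 CPM in the SNT libraries. The sides were far apart (log2 change 2.94, SE 0.35, adjusted p = 1.3e-08). In single cells Pmaip1 had means of 1.40 and 60.1 CPM at day 3 (log2 ratio 4.67, 25 of 41 SNT cells above the highest control cell) and of 0.973 and 2.43 CPM at day 7 (0.80; females 0.62, males 0.98). Bid, a BH3-only protein cleaved by caspase 8, stood at 82.2, 79.8 and 138 CPM against 33.5, 40.9 and 29.4 CPM. Its sides did not overlap (log2 change -1.37, SE 0.25, adjusted p = 3.4e-05), and its exons share 628 bases with Bcl2l13 on the opposite strand (mean 65.6 CPM), from which reads without strand cannot be told apart. In single cells the log2 ratio of Bid was -0.77 at day 3 and -0.57 at day 7 (females -0.46, males -0.68). Bnip3, a mitochondrial BH3-like protein, passed the adjusted p below the fold (log2 change -0.69, adjusted p = 0.0003). Past the fold in cells, this list had 1 of 7 genes higher at day 3 (median -0.24, beside -0.05 over all genes) and 0 of 5 at day 7 (median -0.20, beside -0.07).

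Among the other caspases, Casp1 and Casp12 were called lower in the pools. Casp6, an executioner, did not pass in the pools (log2 change 0.81, adjusted p = 0.31). In day 3 cells its log2 ratio was 1.77 (0.99 with all deposited cells), and at day 7, below the level filter, 1.20 by the means and -0.11 by the medians. Casp1, the inflammatory caspase, stood at 12.4, 4.77 and 28.4 CPM against 2.99, 1.74 and 2.50 CPM, and without control replicate 3, its highest library, it was no longer called (log2 change -1.58, adjusted p = 0.19; range 0.0015 to 0.19). Casp12 stood at 27.5, 22.6 and 24.8 CPM against 9.56, 8.70 and 9.98 CPM, sides apart (log2 change -1.23, SE 0.41, adjusted p = 0.022; range 0.0092 to 0.14). It was no longer called by DESeq2, after thinning, without control replicate 1 or without any 1 of SNT replicates 1 to 3 (adjusted p 0.052 to 0.14), at log2 changes of -1.27 to -1.02. In day 3 cells its log2 ratio was -0.70 by the means and 1.76 by the medians.

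Among 11 apoptosome and mitochondrial release genes, Dffa, the inhibitor of the caspase-activated DNase, was called higher (79.8 to 100 CPM in control and 279 to 331 CPM in SNT libraries, log2 change 1.88, adjusted p = 1e-11; list median 0.25). Diablo, an antagonist of the inhibitors of apoptosis, passed the adjusted p below the fold (0.81, adjusted p = 5e-05). No gene of this list lay past the fold in cells, of 8 at day 3 (median 0.37) and 9 at day 7 (median 0.04). Of 9 inhibitors of apoptosis 7 could be tested, with Birc2 lower and Naip5 higher (median 0.35). Birc2, which encodes cIAP1, stood at 35.8, 29.7 and 63.7 CPM against 14.9, 13.9 and 14.5 CPM, sides apart (log2 change -1.37, adjusted p = 0.0021), and was no longer called without control replicate 3 (-1.01, adjusted p = 0.05; range 0.0005 to 0.05). Naip5 was at 0 in each control library and at 2.21, 4.09 and 4.31 CPM in the SNT libraries, so it met the level filter through the SNT libraries alone. By summed counts it was at least 2.50-fold higher (1.52 to 3.0 over leaving out each library), with an adjusted p of 0.031. It was no longer called by DESeq2 (adjusted p = 0.089) or with the replicate block. The call also ended without any 1 of control replicates 1 to 3 or of SNT replicates 2 and 3 (adjusted p 0.068 to 0.087). Over the alternatives the adjusted p ranged from 0.014 to 0.089. In single cells the means of Naip5 were 1.85 CPM in control and 2.89 CPM in SNT cells at day 3. At day 7 they were 3.82 and 3.55 CPM. Xiap, the direct caspase inhibitor, passed the adjusted p below the fold (-0.91, adjusted p = 0.0029). In cells this list had 0 of 3 genes past the fold at day 3 (median -0.18) and 0 of 3 at day 7 (median 0.07). Among them, Birc2 had a log2 ratio of -0.02 at day 3 and of -0.52 at day 7.

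Of 9 death receptor and adaptor genes 7 could be tested, and Ngfr and Tnfrsf1a were called higher (median -0.06). Ngfr, the p75 neurotrophin receptor, stood at 260, 287 and 248 CPM against 605, 622 and 675 CPM (log2 change 1.41, adjusted p = 6.7e-11), and Tnfrsf1a, a receptor of TNF, at 30.3, 7.2 and 16 CPM against 58.0, 57.4 and 51.3 CPM (1.82, adjusted p = 4.8e-05). Both had sides that did not overlap, and without control replicate 1 the log2 change of Tnfrsf1a was 2.49. In single cells Ngfr had lower means on the SNT side, 1129 and 662 CPM at day 3 (log2 ratio -0.77) and 877 and 538 CPM at day 7 (-0.70), the opposite direction to the pools and short of the fold. In cells Tnfrsf1a was past the fold at day 3, higher (log2 ratio 1.02), and at day 7, lower (-1.47), 1 of 5 genes (median -0.16) and 1 of 4 (median -0.32), and the difference was not tested. Of 9 p53 and stress genes 7 could be tested, with Cdkn1a and Gadd45a higher and Foxo1 and Foxo3 lower (median -0.04). Over all genes the shares called were 8.85% higher and 7.1% lower, and no list was tested as a set. Cdkn1a, a p53 target that stops the cell cycle, stood at 35.8, 38.1 and 10.6 CPM against 462, 486 and 500 CPM (log2 change 4.18, adjusted p = 7.8e-19), and Gadd45a at 5.50, 14.1 and 7.1 CPM against 91.0, 83.6 and 115 CPM (3.52, adjusted p = 1.3e-11). Foxo1 stood at 23.8, 14.6 and 5.43 CPM against 3.02, 3.57 and 3.00 CPM (-2.03, adjusted p = 0.015) and Foxo3 at 49.5, 56.1 and 33.8 CPM against 23.9, 17.4 and 19.5 CPM (-1.04, adjusted p = 0.0087). Foxo1 was no longer called without control replicate 1 (-1.54, adjusted p = 0.16) or by limma (-1.62, adjusted p = 0.069; range 0.0055 to 0.16). Foxo3 was no longer called without SNT replicate 2 (-0.94, adjusted p = 0.041), without control replicate 2 (-0.89, adjusted p = 0.052) or after thinning (-0.90, adjusted p = 0.062), nor by limma or with a prior count of 2 (-0.99 in both), and it was called in 10 of 15 alternatives (adjusted p 0.0024 to 0.062). In cells this list had 2 of 6 genes higher and 1 lower past the fold on each day (medians 0.51 and -0.08), Cdkn1a (2.87 and 2.96), Gadd45a (3.04 and 2.78) and Foxo3 (-1.02 and -1.06).

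Marker lists in single cells were counted in the same way. Neuron markers had 1 of 10 past the fold, lower, on each day (medians -0.10 and -0.16), and glia markers 1 of 10, higher, at day 3 (median 0.14) and 0 of 10 at day 7 (median -0.40). Of 4 nonpeptidergic markers 3 were lower on each day (medians -1.79 and -2.01). Of 3 peptidergic markers 3 were lower at day 3 (median -1.47), and 1 was lower and 1 higher at day 7 (median -0.07). Of 5 large myelinated markers 2 were higher at day 3 (median 0.08) and 3 at day 7 (median 1.18). Both tested immune markers were higher on each day (medians 5.24 and 3.52), with summed immune markers at a median of 7.78 CPM and up to 3306 CPM in 1 SNT cell at day 3. Of erythrocyte markers 1 of 1 was lower at day 3 (-1.21) and 2 of 2 were higher at day 7 (median 3.05), where 1 SNT cell reached 3001 CPM in their sum and the median cell had 9.70 CPM in control and 5.25 CPM in SNT cells. Of fibroblast markers 1 of 2 was lower at day 3 (median -0.38) and 0 of 2 past the fold at day 7 (median 0.32), and no endothelial marker reached the level filter. The part of these lists in the members' ratios was not tested.

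Promoters were compared because FOXO and AP-1 factors are known regulators of BH3-only genes and because Bcl2 fell while Bcl2l11 and Hrk were seen on the SNT side alone in the pools. All 9 genes matched the RefSeq table (GRCm38.p6), with 12 windows of 250 bases before to 50 after a start. The letters searched, on both strands, were TGANTCA (AP-1), TGACGTCA (CRE), its part TGACG, and GTAAACA (FOXO), which 7.81%, 1.79%, 20.8% and 3.65% of 32851 promoters of this length hold. None of the 12 windows held AP-1 or CRE letters. TGACG was found once in each of Bcl2, Mcl1 and Hrk (as CGTCA in the last 2), and GTAAACA once in the first window of Bcl2l11. The windows of these genes are rich in G and C, 76% in Bcl2, 71% in the first of Bcl2l11 and 65.7% in Hrk, beside a median of 52.7% over all promoters. A match describes letters and is no evidence of binding. The 3 windows shown are those of the called member and of both BH3-only members, 5′ to 3′ on the gene's strand, with the matched letters in capitals.
Bcl2 chr1:106714241-106714540 (-): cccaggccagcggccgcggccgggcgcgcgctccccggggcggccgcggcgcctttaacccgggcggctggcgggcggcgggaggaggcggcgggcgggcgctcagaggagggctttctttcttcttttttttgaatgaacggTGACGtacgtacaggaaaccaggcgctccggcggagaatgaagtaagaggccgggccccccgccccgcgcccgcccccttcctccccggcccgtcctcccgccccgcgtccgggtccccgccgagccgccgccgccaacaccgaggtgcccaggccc
Bcl2l11 chr2:128125788-128126087 (+): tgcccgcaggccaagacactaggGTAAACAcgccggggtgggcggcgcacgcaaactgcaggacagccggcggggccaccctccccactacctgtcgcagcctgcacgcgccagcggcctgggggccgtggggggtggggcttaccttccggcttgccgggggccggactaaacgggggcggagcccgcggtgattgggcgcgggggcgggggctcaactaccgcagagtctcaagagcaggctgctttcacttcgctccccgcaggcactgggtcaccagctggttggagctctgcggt
Hrk chr5:118169514-118169813 (+): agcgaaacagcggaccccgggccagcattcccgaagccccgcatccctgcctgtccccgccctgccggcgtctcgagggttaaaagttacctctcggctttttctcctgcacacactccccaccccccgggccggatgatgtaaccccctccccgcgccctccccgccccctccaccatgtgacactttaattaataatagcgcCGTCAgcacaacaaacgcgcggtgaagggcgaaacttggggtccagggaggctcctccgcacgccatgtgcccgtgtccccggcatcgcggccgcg

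In the annotation (GRCm38), Bcl2 spans chr1:106538178-106714274 on the minus strand and overlaps, over 558 exon bases, the opposite-strand gene D630008O14Rik, which is not in the tables. Bcl2l1 lies at chr2:152780668-152831728 (minus) and Bcl2l11 on the plus strand of the same chromosome at chr2:128126038-128162547, and neither overlaps another gene. Hrk lies at chr5:118164648-118189478 (plus) and Mcl1 at chr3:95658788-95663176 (plus), also with no overlap. Bcl2l2 lies at chr14:54883377-54888234 (plus), Bax at chr7:45461697-45466898 (minus), Bak1 at chr17:27019810-27029009 (minus) and Casp9 at chr4:141793612-141815976 (plus). Exons of Casp9 share 94 bases with opposite-strand Cela2a and Ctrc, which had a mean of at most 0.025 CPM.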

How the data were processed

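The deposited tables were read as RSEM expected counts, although the file names read TPM: the columns hold fractional values with unequal totals of 223967 to 2003817. No source used here states this reading, on which each count, CPM value and counting bound rests. The submitters' processing notes credit CASAVA 1.8.2, Bowtie2 and RSEM on mm9. All value columns were used (0 unused), and 27 symbols that differ between the tables (the values being equal) were read from the table without outliers. Cells came from the table without outliers, pools from the full table.

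Pooled counts were rounded and fitted with the edgeR 4.0.16 quasi-likelihood test with TMM scaling and a prior count of 0.125 (R 4.3.3), over the 13509 genes whose mean reached 1 CPM, with Benjamini-Hochberg adjustment over them; the code was tested on simulated data. DESeq2 1.42.0, limma 3.58.1, other scalings, filters, prior counts, thinning, a replicate block and leaving out each library were tried as alternatives. For cells, log2 ratios of mean CPM with 1 CPM added were taken, past the fold beyond 1, for genes whose mean reached 10 CPM on either side (Python 3.11.15, numpy 2.4.6, scipy 1.17.1, pandas 2.3.3, matplotlib 3.10.9). Thinning drew 200000 counts a cell.

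Named were the 9 members, Atf3, Jun and Sprr1a as a check of the labels, P2rx3 as the divider, each gene of the pathway lists called in the pools, tested genes of the BCL2 family and caspase lists, and the 5 genes most like the members of largest rise and fall. Some results that fall under these rules, and the counts of the caspase list, are not reported here. Naming Diablo, Xiap, Nefh and single markers was chosen after their values were seen. The members and lists were chosen with earlier results of these data known. For the C57BL/6 cells the labels name both 3 and 7 days, and the titles were followed. The pooled columns were grouped by their names.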

Additional observations from a re-analysis of the deposited data

How the results depend on the processing

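In the pools, 1 member was called under each setting, the replicate block included, except without control replicate 2 (2 members); over leaving out each library the count ranged from 1 to 2. The replicate block pairs libraries by number, whose same-number correlations were 0.059, -0.016 and -0.007; among named genes it ended the call of Naip5 alone (adjusted p = 0.079). Past the adjusted p at any size, the count was 2 with a mean of at least 10 CPM, 2 with library size alone and 1 to 2 over leaving out each library. At day 3, the count past the fold was 0 by the median over cells (Bcl2 at -1.14, its medians below the level filter), 0 with all deposited cells, 0 with a pseudocount of 10 CPM, 0 with the highest cell of each side left out, 2 with a pseudocount of 0.1 CPM and 2 after thinning to 200000 counts. At day 7 it was 1 by the median over cells. By P2rx3 at day 7, it was 0 above 1 CPM and 0 at most 100 CPM. The cause was not tested. Of values rerun, none past its threshold changed sign; some short of it did, among them Bcl2 (-2.11) and Bcl2l11 (-1.14) at day 7 by the median over cells, as did Casp12 at day 3 (1.76). Of single-gene log2 changes in the pools, 358 kept their direction and side of the threshold, 22 no longer passed and 1 newly passed; of cell ratios, 76 stayed within the 95% binomial interval of their counts and 15 did not at day 3, 100 and 17 at day 7. Alternatives for Casp6, Pmaip1 and Bid in cells, and leaving out the highest cells by P2rx3, were chosen after seeing the data. Depth limits Bcl2l11, Hrk and Bak1 most: pools hold at most 9, 7 and 17 counts of them in a library.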
